A study of Mus musculus with 24 samples.

Results

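WT neural stem cells (NSCs) were compared with the WT mouse embryonic stem cells (mESCs) they were derived from. The members are all genes located outside the X and Y chromosomes with a mean of at least 1 FPKM (a read density corrected for transcript length and library size) over the 6 WT libraries concerned. Of 23119 genes listed in the deposited table, 11797 met this rule. A further 1091 lie on X or Y and were 0 in every library, 5095 were 0 in all 6 libraries, 5135 were above 0 but below the mean of 1, and 1 (Serbp1) had a failed estimate.

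The study followed replication timing and folding of the inactive X during neural differentiation, and its poly(A) RNA-seq data cover mESCs, day 7 and day 9 neurectoderm cells and NSCs, each as WT and SmcHD1-mutant (KO) cells, with 3 libraries per group and 24 in all. Both groups compared here are WT cells of JB4/EI7HZ2, a female line from a JF1 by B6 cross that carries a zeocin resistance gene on the JF1-X and a neomycin resistance gene on the B6-X. The mESCs were kept on gelatin in serum with LIF, the MEK inhibitor PD0325901 and the GSK3 inhibitor CHIR99021 (2i/LIF). The NSCs were outgrowths of cell aggregates, on gelatin in a defined N2 medium with FGF2 and EGF. Both the mESC and the NSC media held G418 and zeocin, which select for cells with both X chromosomes. Day 7 and day 9 cells came from another protocol, through epiblast-like cells and aggregates, and are not precursors of these NSCs. All 6 libraries come from this single line, so state, medium and the history of the NSC derivation cannot be told apart. The study's supplement describes the 3 libraries of a group as independent biological experiments, without saying whether each NSC library came from its own derivation.

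The mESC state rests on a network of transcription factors around OCT4 (Pou5f1), SOX2 and NANOG. In 2i/LIF medium MEK inhibition blocks ERK signaling, GSK3 inhibition stabilizes β-catenin and LIF activates STAT3. NSCs cultured with FGF2 and EGF resemble radial glia, the elongated progenitors of the developing brain and spinal cord, and keep dividing through receptor tyrosine kinase signaling. SOX2 is a factor of both states.

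Of the 11797 genes tested, 9123 (77.3%) were called at an adjusted p under 0.05 (limma on log2(FPKM + 1), Benjamini-Hochberg adjustment), 4457 higher (37.8%) and 4666 lower (39.6%) in NSCs. With so many calls, a change of at least 2-fold is required below as well. It was met by 2520 genes higher in NSCs (21.4% of those tested) and 2384 lower (20.2%), and by contrast 4219 called genes changed less. The median log2 fold change, NSCs minus mESCs, was -0.03 over all tested genes, with quartiles of -0.80 and 0.83. In 442 genes the rise, and in 420 the fall, was 8-fold or more. The NSC and mESC libraries did not overlap in 8316 genes (70.5%). There were 322 genes at a mean of 5 FPKM or more in NSCs and 0.5 or less in mESCs, and 411 with the reverse. By chromosome, the median log2 fold change ran from -0.25 on chr16 to 0.09 on chr1.

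Libraries of one state resembled each other more than those of the other state. Pearson's r over genes was 0.969 to 0.982 among mESC libraries, 0.952 to 0.981 among NSC libraries and 0.646 to 0.711 between states. NSC replicate 1 stood slightly apart, with r of 0.952 and 0.961 to the other NSC libraries against 0.981 between those. Relative read numbers, with the median library at 1, were 0.900 to 0.995 in mESCs and 1.01 to 1.08 in NSCs. They were worked out from the most common ratio between libraries in genes averaging at most 0.3 FPKM. Read totals were not used here. The summed FPKM was 740491 to 772602 in mESCs and 530156 to 588927 in NSCs. When all libraries were brought to an equal sum (the same-sum scaling), this shifted the median of all genes by 0.43 on the log2 scale and raised the share of 2-fold calls that were higher in NSCs from 51.4% to 69.1%, and of all calls from 48.9% to 66.6%. When each library was scaled instead by the median ratio of its genes to their average, this shift was about 0 and 9111 genes were called. Directions of small changes therefore depend on the scaling chosen. In bulk RNA, fewer cells of a type and less RNA per cell cannot be told apart.

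**Figure D1:**
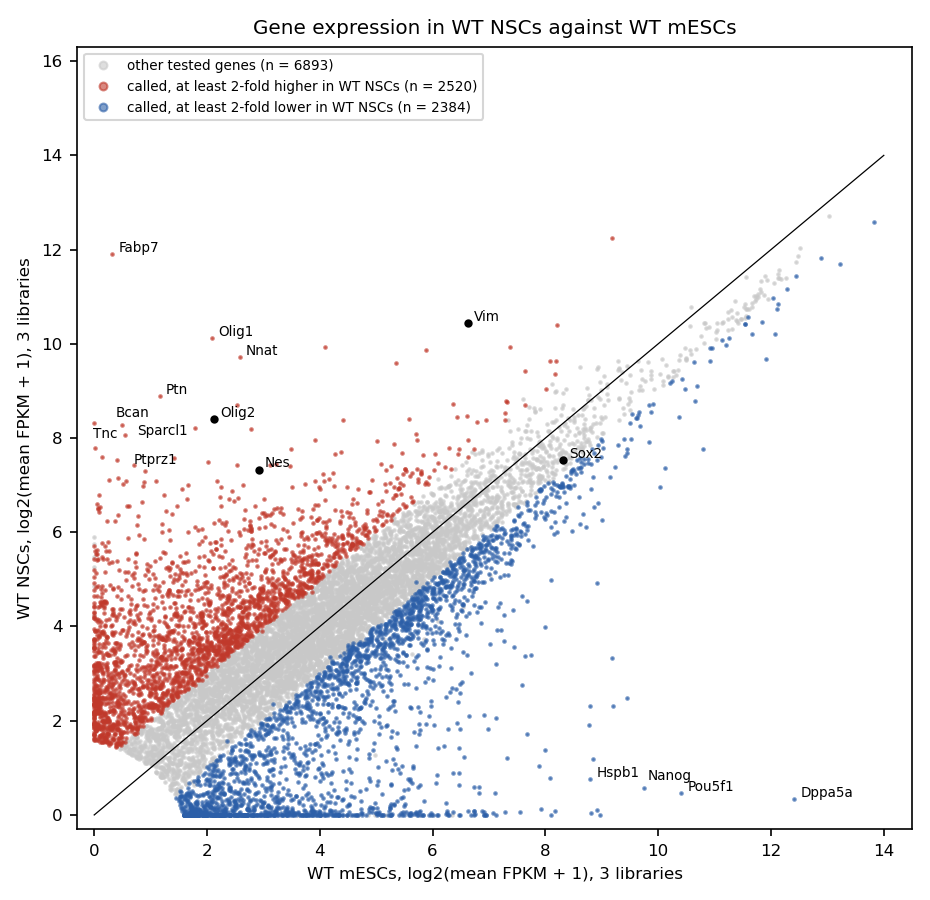
Each point is a tested gene, with log2(mean FPKM + 1) over the 3 WT mESC libraries on the x axis and over the 3 WT NSC libraries on the y axis; the line marks equal values. The 2520 genes called at least 2-fold higher in NSCs are red and the 2384 lower are blue. Fabp7, Olig1 and Bcan lie far above the line and Dppa5a, Pou5f1 and Nanog along the bottom, whereas Sox2 lies near the line.

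The 10 largest rises began with Fabp7. Fabp7 (chr10:57504729-57508256, mm9), which encodes the brain fatty acid binding protein, was at 0, 0.366 and 0.379 FPKM in the 3 mESC libraries and at 3260, 5000 and 3330 FPKM in the NSC libraries (log2 fold change 11.58, SE 0.24, adjusted p 1.16e-19). Olig1 (chr16:91270014-91272184), a bHLH factor of the oligodendrocyte lineage, was at 2.83, 4.79 and 2.16 FPKM in mESCs and 1110, 1150 and 1100 FPKM in NSCs (8.09, SE 0.25). The groups of both genes lay far apart, and the 3 NSC libraries were close for Olig1. Genes of secreted and matrix proteins were also among the 10. The proteoglycan gene Bcan (chr3:87791453-87804278) rose from 0.171 to 0.542 FPKM in mESCs to 233 to 383 FPKM in NSCs (7.77, SE 0.16), tenascin C (Tnc, chr4:63620819-63708049) from at most 0.0308 to 183 to 245 FPKM (7.76, SE 0.20), and the matrix gene Sparcl1 (chr5:104508128-104543107) from 0.291 to 0.593 to 148 to 347 FPKM (7.43, SE 0.38). The proteoglycan gene Ncan (chr8:72616984-72644743) was at 93.8, 251 and 233 FPKM in the NSC libraries, replicate 1 being the lowest, and at 0.220 FPKM or less in mESCs (7.33, SE 0.27). Pleiotrophin (Ptn, chr6:36665663-36761361), a secreted growth factor, and its receptor Ptprz1 (chr6:22825502-23002916) rose together, Ptn from 0.901 to 1.75 to 384 to 562 FPKM (7.73, SE 0.21) and Ptprz1 from 0.270 to 0.391 to 142 to 228 FPKM (7.12, SE 0.16). The imprinted gene Nnat (chr2:157382098-157392097, overlapping Blcap) completed this group, with 4.35 to 5.49 FPKM in mESCs and 800, 1100 and 636 FPKM in NSCs (7.11, SE 0.25). The entry Mir1905 also met the naming rule, at 0 in all mESC libraries and 168, 473 and 312 FPKM in NSCs, but it is a microRNA entry within Mex3a whose poly(A) reads cannot be assigned between them.

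The 10 largest falls included Dppa5a, Pou5f1 and Nanog. Dppa5a (chr9:78214861-78216006), an RNA-binding protein gene of pluripotent cells, was at 7740, 3530 and 5120 FPKM in mESCs and 0, 0.409 and 0.404 FPKM in NSCs (log2 fold change -12.01, SE 0.24, adjusted p 5.92e-20). Pou5f1 (chr17:35642977-35647722) was at 1240, 1450 and 1380 FPKM in mESCs and 0, 0.931 and 0.224 FPKM in NSCs (-9.99, SE 0.21). Nanog (chr6:122657586-122663796, an entry shared with Nanogpd) was at 755, 884 and 929 FPKM in mESCs and 0.823, 0.155 and 0.459 FPKM in NSCs (-9.20, SE 0.26). All 3 genes were among the abundant transcripts of mESCs and stayed below 1 FPKM in every NSC library. Tdh, encoding threonine dehydrogenase, a metabolic enzyme of mESCs, was at 403 to 526 FPKM in mESCs and at most 0.226 FPKM in NSCs (-8.80). Tdgf1, the Nodal co-receptor gene, was at 403 to 478 and at most 0.104 FPKM (-8.76), and the small heat shock gene Hspb1 at 376 to 495 and at most 1.36 FPKM (-8.10). The oocyte gene Ooep was at 249 to 307 FPKM in mESCs and at most 0.189 FPKM in NSCs (-8.08), and the F-box gene Fbxo15, which overlaps 1700034H14Rik, at 216 to 259 and at most 0.129 FPKM (-7.81). The entries 2210409E12Rik (408 to 551 FPKM) and Fam25c (198 to 319 FPKM) were listed at 0 in all 3 NSC libraries.

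Genes were further grouped in 38 lists by function, shown in the plot of gene lists, and for each list the members called at least 2-fold higher or lower are counted out of all those listed. The 21.4% higher and 20.2% lower among all genes are shares of tested genes, so they compare only with shares of tested members. In lists with many untested members these differ from the counts. They were 60% higher and 20% lower for neural crest and fibroblast, 75% and 0% for ventral and 50% and 0% for endoderm genes. Among lists with small departures from all tested genes, they were 35.3% and 23.5% for the extracellular matrix and 11.1% and 22.2% for the lamina. For the integrated stress response they were 25% and 6.25%.

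**Figure D2:**
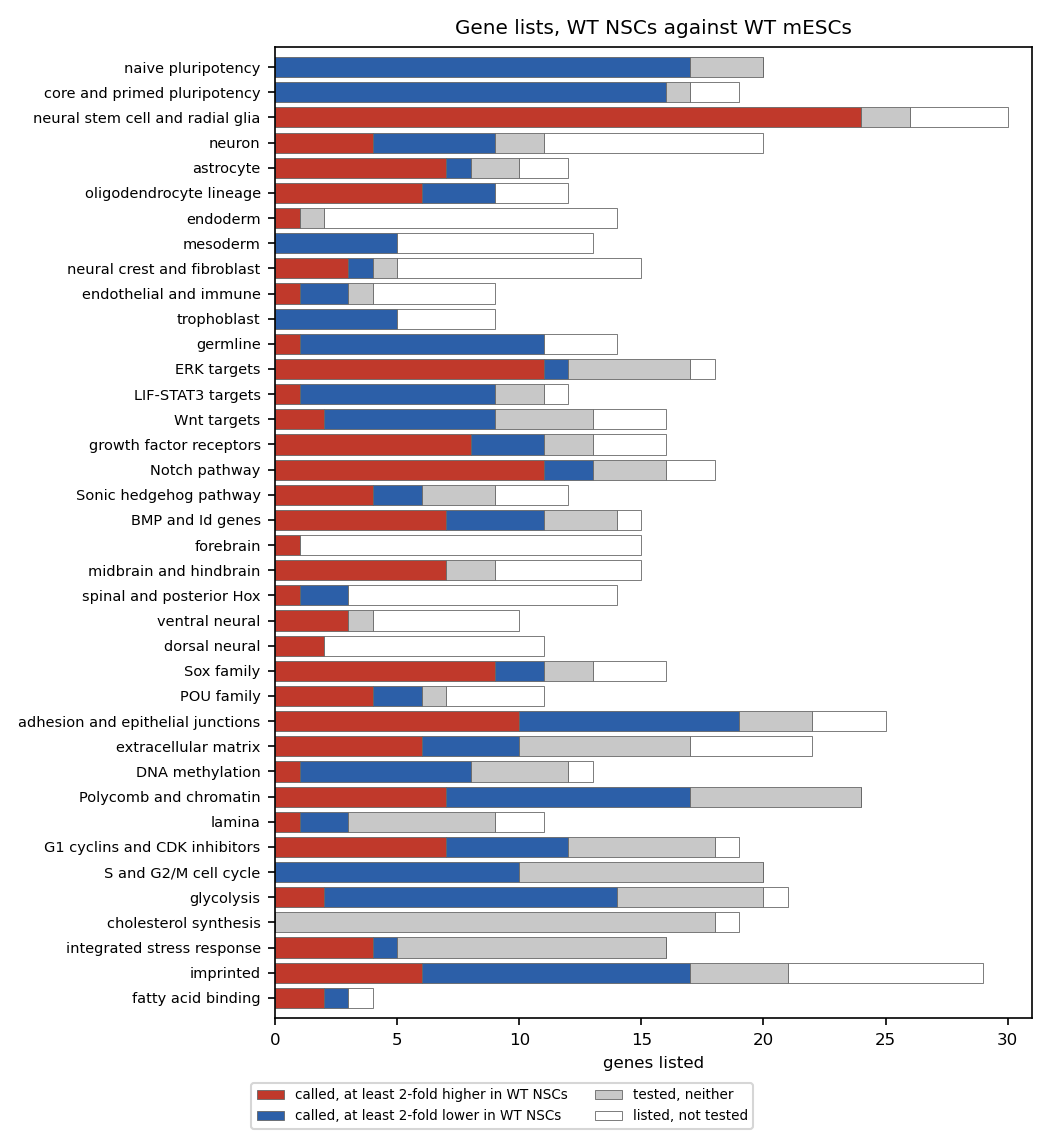
Bars give the number of genes listed in each of 38 gene lists, split into those called at least 2-fold higher in WT NSCs (red), at least 2-fold lower (blue), tested but neither (gray) and listed but not tested (white). The naive pluripotency list has 17 of 20 members lower and none higher, the neural stem cell and radial glia list 24 of 30 higher and none lower, and the adhesion list 10 higher and 9 lower of 25.

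The naive pluripotency list held 20 genes, all tested, of which 17 fell and none rose by 2-fold, with a median log2 fold change of -6.20 against -0.03 for all genes. Besides Nanog, Dppa5a and Tdh, the nuclear receptor gene Esrrb fell from 173 to 225 FPKM in mESCs to 5.66, 0.357 and 0.839 FPKM in NSCs (-6.32, SE 0.38, and -7.01 without NSC replicate 1, the highest of the 3). Zfp42 (REX1) was at 61.7, 56.0 and 71.7 FPKM in mESCs and was listed at 0 in all NSC libraries. Klf4, a Krüppel-like factor, did not fall as far, from 140, 167 and 106 FPKM in mESCs to 4.68, 11.1 and 8.95 FPKM in NSCs (-3.96, SE 0.36). The 3 members without a 2-fold change were Sox2, Jam2 (-0.50) and Gbx2, which was at 7.78 to 13.9 FPKM in mESCs and 6.22 to 13.1 FPKM in NSCs (-0.27, adjusted p 0.398). In the core and primed list, 16 of 19 genes fell and none rose (median -5.58). Sall4, a zinc finger partner of OCT4, fell from 39.7 to 89.1 to at most 0.0759 FPKM (-5.87), Lin28a, the let-7 processing inhibitor, from 27.6 to 54.7 to 0.108 to 0.116 FPKM (-5.03), and L1td1 from 85.4 to 177 to at most 0.0652 FPKM (-6.97). Utf1 was at 56.9 to 153 FPKM in mESCs and listed at 0 in NSCs. Only the POU factor gene Pou3f1 among the 17 tested was not called, at 5.53, 4.67 and 3.93 FPKM in mESCs and 12.2, 2.61 and 5.66 FPKM in NSCs. It was called higher (0.73, adjusted p 0.0171) without NSC replicate 2.

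A promoter stretch of Zfp42 is shown because it holds an octamer, the POU factor motif, in capitals. The octamer (ATTTGCAT, either strand, 250 bases before the start) was found in 1 of 12 naive genes with a promoter sequence, in none of 12 core and primed genes, and in 1.81% of all 27025 genes. Promoter sequences are from RefSeq, assembly GRCm38.p6, not the mm9 build of the expression table. This stretch lies at chr8:43307161-43307222 on the minus strand.
Zfp42: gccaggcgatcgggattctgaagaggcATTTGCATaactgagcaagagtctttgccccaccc

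Neural stem cell and radial glia genes moved the other way. Of 30 listed, 26 were tested, 24 rose and none fell by 2-fold, with a median of 4.71. The summed level of the list was 471 to 489 FPKM in mESC libraries and 6960 to 9310 FPKM in NSC libraries. Nestin (Nes), an intermediate filament gene of neural progenitors, was at 7.94, 4.84 and 6.91 FPKM in mESCs and 267, 97.5 and 115 FPKM in NSCs (4.28, SE 0.25). Vimentin (Vim), the filament gene of radial glia, was already at 80.3, 120 and 93.2 FPKM in mESCs and reached 1450, 1290 and 1420 FPKM (3.83, adjusted p 2.09e-15). For both the groups were far apart, with NSC replicate 1 the highest for Nes. Sox2 was the single member called lower, at 310, 316 and 317 FPKM in mESCs and 139, 204 and 211 FPKM in NSCs (-0.79, SE 0.13, adjusted p 1.43e-05); scaled to the same sum, its change was -0.34 with an adjusted p of 0.0511, so it is high in both states and its call depends on the scale. Sox2 overlaps Sox2ot and Mir1897. Among members not tested, Emx2 was at a mean of 1.46 FPKM in NSCs.

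**Figure D3:**
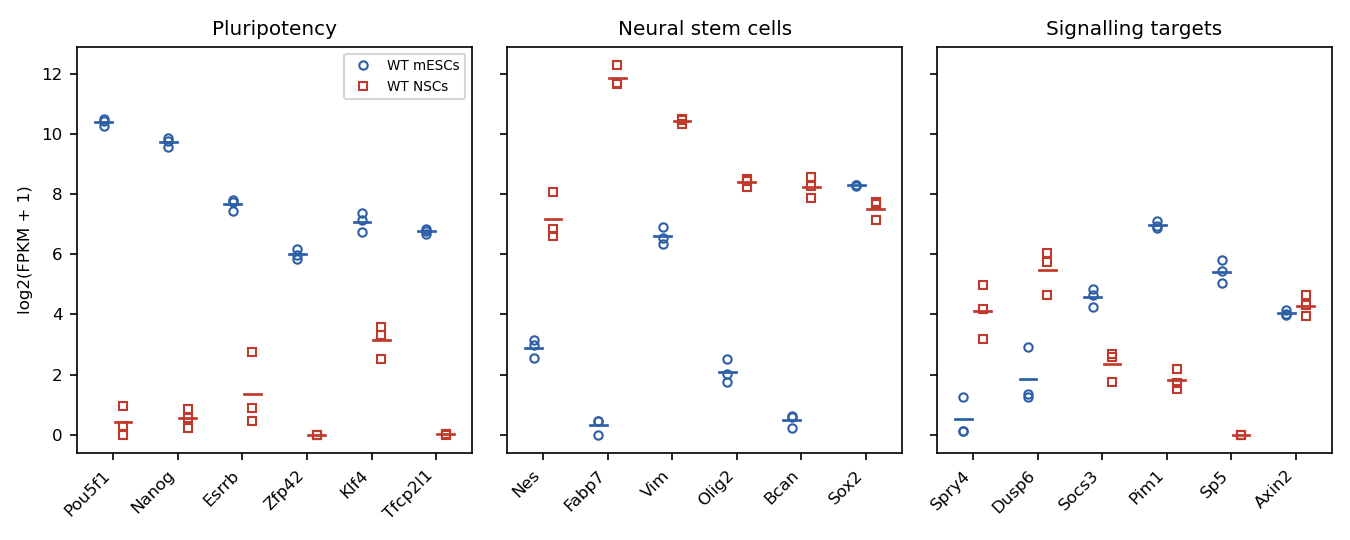
Values of single WT libraries as log2(FPKM + 1) on the y axis for 18 genes, with blue circles for the 3 mESC libraries, red squares for the 3 NSC libraries and bars for their means. The 6 pluripotency genes lie higher in mESCs, 5 neural genes lie higher in NSCs, and the libraries for Axin2 overlap between states.

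Markers of differentiated neural cells were mixed. Of 20 neuron genes 11 were tested, with 4 higher and 5 lower in NSCs, or 3 lower when scaled to the same sum. Map2, encoding a dendritic microtubule protein, rose from 3.39 to 3.75 to 120 to 146 FPKM (4.90, SE 0.14) and Gap43, a growth cone gene, from 1.54 to 2.45 to 70.7 to 163 FPKM (5.29). The microtubule gene Stmn2 fell from 118 to 156 to at most 0.630 FPKM (-6.65), and the neurofilament gene Nefl from 29.2 to 78.3 to 0.295 to 1.06 FPKM (-5.07). Nefm, which overlaps A230070E04Rik, also fell (-2.99). The neuronal tubulin gene Tubb3 was at 16.8, 59.9 and 38.6 FPKM in mESCs and 5.75, 21.6 and 18.7 FPKM in NSCs, with overlapping libraries (-1.28, adjusted p 0.00952); the call was lost without mESC replicate 2 (-0.88, adjusted p 0.0716) or NSC replicate 1 (-0.73, 0.084) and when scaled to the same sum (-0.85, 0.0988) or with only the 6 libraries fitted (0.0849). Syt1 rose, but to 19.5, 1.97 and 2.1 FPKM, so replicate 1 sets its size (2.44, and 1.52 without it). The neuronal marker Rbfox3 was at 1.18 FPKM in NSCs on average.

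Of 12 astrocyte genes, 7 rose and 1 fell, or none fell without mESC replicate 1 or NSC replicate 1 or when scaled to the same sum. Aldoc, the brain aldolase gene, rose from 5.74 to 21.6 to 119, 317 and 305 FPKM (4.08) and the calcium-binding protein gene S100b from at most 0.132 to 4.69, 17.4 and 26.5 FPKM (3.77, and 4.43 without NSC replicate 1). Gfap, the astrocyte filament gene, was at 0.151, 7.05 and 8.11 FPKM in NSCs and at most 0.163 FPKM in mESCs (2.03, adjusted p 0.00799), values that overlap through NSC replicate 1; it was 2.99 without that library, and the call was lost without NSC replicate 2 (1.59, adjusted p 0.0508) or 3 (1.5, 0.0539). Aldh1l1, a folate enzyme gene, fell (-1.13, and -0.72 without mESC replicate 1). The lipoprotein gene Apoe was at 376, 277 and 271 FPKM in mESCs and 35.9, 438 and 369 FPKM in NSCs, and Clu at 4.36 to 8.01 and 1.18 to 9.79 FPKM; neither was called. NSC replicate 1 was the lowest NSC library for Aldoc, S100b, Gfap, Apoe and Clu alike.

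The oligodendrocyte lineage list had 6 of 12 members higher and 3 lower. Among those that rose, Olig2, the bHLH partner of Olig1, went from 2.40, 4.67 and 3.04 FPKM to 364, 303 and 346 FPKM (6.30, SE 0.31), the PDGF receptor gene Pdgfra from at most 0.392 to 5.85, 27.4 and 19.8 FPKM (3.63, and 4.24 without NSC replicate 1), and Nkx2-2 from at most 0.167 to 9.82 to 12.6 FPKM (3.54). Sox10 rose from at most 0.382 to 0.757, 9.17 and 6.75 FPKM (2.18, and 2.96 without NSC replicate 1). Among those that fell, the myelin gene Mbp went from 2.57 to 4.82 to 0.148 to 0.418 FPKM (-1.85) and the myelin regulator Myrf from 2.49 to 4.18 to 0.622 to 0.761 FPKM (-1.27). Mobp was at 4.35 to 9.89 FPKM in mESCs and listed at 0 in NSCs.

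Markers of other lineages differed by list. Of 14 endoderm genes 2 were tested and 1 rose (both with a pseudocount of 0.1) (the chemokine receptor gene Cxcr4, 1.19 to 1.45 to 5.48 to 9.08 FPKM, 1.90); means of Gata6, Sox17 and Foxa2 were at most 0.0199 FPKM in NSCs. All 5 tested of 13 mesoderm genes fell, among them brachyury (T), from 11.7, 6.44 and 5.29 to 0.824, 0.484 and 0.192 FPKM (-2.51), and Tcf15, from 32.9 to 45.2 to 0.490 to 0.727 FPKM (-4.58). Meox1 was listed at 0 in NSCs. In the trophoblast list 5 of 9 fell, with the AP-2 factor gene Tfap2c going from 23.9 to 32.9 to at most 0.147 FPKM (-4.79), Tead4 from 11.4 to 14 to 0.0650 to 0.463 FPKM (-3.46) and Eomes from 1.39 to 2.29 to 0.204 to 0.258 FPKM (-1.22). Of 9 endothelial and immune genes 1 rose and 2 fell, and none rose without NSC replicate 1. With the filter taken over all 24 libraries none rose and 1 fell. Pecam1, also expressed by mESCs, fell from 32.0 to 43.7 to 0.0586 to 0.312 FPKM (-5.10), the angiopoietin receptor gene Tek fell (-1.80), and Emcn was at 6.56, 1.28 and 0.281 FPKM in NSCs and listed at 0 in mESCs. The leukocyte gene Ptprc was at 0.0117 FPKM and the endothelial Cdh5 at 0.0325 FPKM in NSCs. Neural crest and fibroblast genes had 3 of 15 members higher and 1 lower, and a summed level of 30.5 to 43.8 FPKM in mESC and 36.7 to 49.7 FPKM in NSC libraries. The homeobox gene Prrx1 went from 0 in all mESC libraries to 10.6, 14.1 and 12 FPKM, Twist1 rose from 1.04 to 2.55 to 10.1 to 24.9 FPKM (2.47), and Foxd3 was at 7.52 to 30.4 FPKM in mESCs and 0 in NSCs. The other 10 listed genes were below the level tested, with NSC means of 0.0318 FPKM (Tfap2b) to 1.79 FPKM (Col3a1, at 0 in mESCs). Thy1 was at 4.34 to 7.03 FPKM against 8.68 to 14.9 FPKM in mESCs (-0.85, but -0.45 with an adjusted p of 0.12 when scaled to the same sum).

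Target genes of the pathways that the media act on differed by pathway. Of 18 ERK targets, 11 rose and 1 fell (none when scaled to the same sum), with a median of 2.27. The feedback inhibitor gene Spry4 was at 0.0875, 1.40 and 0.0967 FPKM in mESCs and 30.9, 8.10 and 17.3 FPKM in NSCs (3.62, SE 0.36), and the ERK phosphatase gene Dusp6 at 1.55, 6.63 and 1.39 FPKM and 65.7, 24 and 52.9 FPKM (3.64, SE 0.43). For both, mESC replicate 2 was the highest mESC library and NSC replicate 2 the lowest NSC library, and the groups did not overlap. The ETS factor gene Etv4 rose from 1.98 to 6.33 to 44.9 to 57.2 FPKM (3.56) and Phlda1 from 1.21 to 1.87 to 32.5 to 46.7 FPKM (3.95). Dusp5, another phosphatase gene, fell (-1.31). Etv5 was at 171 to 225 FPKM in mESCs and 92.8 to 200 FPKM in NSCs (-0.54, adjusted p 0.0266), a call lost without mESC replicate 2 (-0.47, adjusted p 0.0893), mESC replicate 3 (-0.49, 0.0754) or NSC replicate 2 (-0.25, 0.255), with only the 6 libraries fitted (0.103) and when scaled to the same sum (-0.09, 0.709).

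LIF-STAT3 targets had 8 of 12 members lower and 1 higher (median -3.09). The feedback inhibitor gene Socs3 fell from 27.9, 18.1 and 24.1 FPKM to 2.34, 4.96 and 5.46 FPKM (-2.25, SE 0.27), the kinase gene Pim1 from 138, 117 and 121 FPKM to 3.55, 1.84 and 2.28 FPKM (-5.17), and the pluripotency factor gene Tfcp2l1 from 102 to 113 to at most 0.0209 FPKM (-6.74). The adhesion gene Icam1 fell (-4.87), and Junb, at 6.61 to 15.1 and 2.78 to 13.1 FPKM, was not called (-0.71, adjusted p 0.0835) but was called lower without mESC replicate 3 (-1, 0.0262) or NSC replicate 2 (-1.22, 0.00237). Stat3 itself rose from 18.7 to 21.8 to 50.3 to 64.4 FPKM (1.47, SE 0.13). Klf4 and Tfcp2l1 are also pluripotency genes.

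Among 16 Wnt targets, 7 fell and 2 rose (median -2.51). The homeobox gene Cdx1 was at 36.7 to 52.6 FPKM and the zinc finger gene Sp5 at 31.9, 54.8 and 42.2 FPKM in mESCs, and both were listed at 0 in every NSC library. The Wnt-inactivating enzyme gene Notum fell from 19.9 to 44.9 to 0.209 to 0.491 FPKM (-4.58), and the transcription factor gene Lef1 from 15.2 to 19.8 to 0.235 to 1.85 FPKM (-3.39). Axin2, a general feedback target of the pathway, was at 15.3, 14.8 and 16.8 FPKM in mESCs and 14.3, 18.7 and 24.2 FPKM in NSCs, overlapping and not called (0.24, adjusted p 0.309), although it was called higher under the same-sum scaling (0.67, 0.0142). The feedback inhibitor gene Nkd1 rose from 0.897 to 1.96 to 11.5 to 31.7 FPKM (3.25) and the R-spondin receptor gene Lgr5 from at most 0.136 to 5.65 to 9.67 FPKM (2.97). Znrf3 was not called (0.34, adjusted p 0.0681), but passed without mESC replicate 3 (0.49, 0.0192) or NSC replicate 3 (0.43, 0.0439) and when scaled to the same sum (0.72, 0.000727).

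Of 16 growth factor receptor genes, 8 rose and 3 fell by 2-fold. Egfr, the EGF receptor gene, was at 1.48, 0.320 and 0.260 FPKM in mESCs and 39.7, 95.9 and 75.8 FPKM in NSCs (5.39, SE 0.28). The FGF receptor gene Fgfr1 rose from 16.8, 23.1 and 21.0 FPKM to 51.1, 48.1 and 59.3 FPKM (1.34, SE 0.12), and Fgfr3 from 0.960 to 1.41 to 7.61, 37.5 and 32.5 FPKM (3.33, and 4.02 without NSC replicate 1). Fgfr2 rose by less than 2-fold (0.70), and Fgfr4, below the level tested, averaged 0.966 FPKM in mESCs and 0.246 FPKM in NSCs. The subunit shared by LIF family receptors, Il6st, fell from 37.8 to 42.4 to 12 to 13.3 FPKM (-1.58), as did the neuregulin receptor gene Erbb3 (-3.09) and the stem cell factor receptor gene Kit (-1.15).

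Notch signaling, in which a ligand on a neighboring cell releases the receptor's intracellular domain to act with RBPJ, keeps neural progenitors from differentiating. Of 18 genes in its list, 11 rose and 2 fell (median 2.44). The ligand gene Dll1 rose from 0.395 to 0.892 to 30.3, 64.3 and 41.7 FPKM (4.75, SE 0.23), the receptor gene Notch1 from 4.43 to 6.08 to 29.0, 55.2 and 46.9 FPKM (2.76) and Notch2 from 3.42 to 4.59 to 6.80 to 9.88 FPKM (0.92). The glycosyltransferase gene Lfng, which modifies the receptor, went from 1.84, 0.590 and 0.102 FPKM to 65.0, 47.8 and 57.9 FPKM (5.07). The target gene Hes5 went from at most 0.179 to 15.3, 157 and 81.6 FPKM (5.82, SE 0.56, and 6.76 without NSC replicate 1 or 5.12 without replicate 2). Its NSC libraries were spread widely. Hes1 was at 14.6 to 16.2 FPKM in mESCs and 13.1, 24.4 and 41.9 FPKM in NSCs (0.61, adjusted p 0.0296); the call was lost without mESC replicate 1 (0.60, adjusted p 0.0616), mESC replicate 3 (0.58, 0.0705), NSC replicate 2 (0.59, 0.0666) or NSC replicate 3 (0.22, 0.332) and with only the 6 libraries fitted (0.155), and the change was 1.02 without NSC replicate 1. The ligand gene Jag2 (-1.92) and Rbpj (-1.53) fell.

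Stretches of the Hes5 and Lfng promoters are shown because these genes rose and hold an RBPJ motif, in capitals. The motif (GTGGGAA, either strand, 250 bases before the start) was found in 3 of the 14 Notch genes with a promoter sequence (Hes5, Hey2 and Lfng) and in 6.18% of all genes. The stretches lie at chr4:154960813-154960873 for Hes5 and chr5:140607205-140607265 for Lfng, both on the plus strand (RefSeq, GRCm38.p6).
Hes5: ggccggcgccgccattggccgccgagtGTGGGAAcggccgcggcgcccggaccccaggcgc
Lfng: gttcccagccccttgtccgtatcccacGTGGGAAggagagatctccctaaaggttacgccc

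In the Sonic hedgehog list 4 of 12 genes rose and 2 fell, with 6 rises without mESC replicate 2 or NSC replicate 3 and when scaled to the same sum. The signal transducer gene Smo rose from 8.41 to 13.6 to 36.8 to 54.4 FPKM (1.98) and the co-receptor genes Gas1, from 0.979 to 2.36 to 59.2 to 70.8 FPKM (4.77), and Boc, from 1.02 to 1.68 to 8.41 to 10.4 FPKM (2.17). The receptor and target gene Ptch1 rose by less than 2-fold (0.99). The transcription factor gene Gli2 fell (-1.59), and the target gene Gli1 was at 0.0183 FPKM in NSCs and 0.840 FPKM in mESCs, below the level tested. Of 15 BMP and Id genes, 7 rose and 4 fell. Id proteins block bHLH factors and are BMP targets. Id1 was at 2.44, 4.62 and 0.599 FPKM in mESCs and 17.4, 47.9 and 25.7 FPKM in NSCs (3.20, SE 0.64), Id2 at 5.56 to 11.5 and 73.0 to 97.7 FPKM (3.31), and Id3 at 8.95, 89.2 and 22.0 FPKM and 137, 137 and 149 FPKM (2.37, with 1.64 to 3.23 depending on whether mESC replicate 1 or 2 was left out). Id4 fell (-1.19). The signal transducer gene Smad5 rose from 5.38 to 5.82 to 42.5 to 57.6 FPKM (2.97), and the inhibitory Smad6 (-2.71) and Smad7 (19.2 to 40.0 to 0.493 to 0.917 FPKM, -4.12) fell. The ligand gene Bmp4 was at 0.857, 6.86 and 0.829 FPKM in mESCs and 0 in NSCs.

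Genes of regional identity were examined by axis. Of 15 forebrain genes only Lhx2 was tested, and it rose from 0.553, 0.688 and 1.73 FPKM to 7.20, 3.94 and 3.81 FPKM (1.59); without a filter, or with it taken over all 24 libraries, 2 forebrain genes rose. Of 15 midbrain and hindbrain genes 9 were tested, 7 rose and none fell, while 1 fell with either of those filter choices. Below the level tested, Fgf8 averaged 1.69 FPKM in mESCs and 0.226 FPKM in NSCs. The engrailed gene En1 rose from at most 0.610 to 3.47 to 5.62 FPKM (2.16) and En2 from 2.70 to 3.56 to 10.2 to 18.1 FPKM (1.76). The hindbrain Hox genes Hoxa2, from 0.389, 0 and 0 to 19.7, 22.0 and 24.5 FPKM (4.36), and Hoxb2, from 0 in every mESC library to 10.8, 8.89 and 12.7 FPKM, also rose, as did the Iroquois gene Irx3 (2.76). In the posterior Hox list 3 of 14 were tested, with 1 rise and 2 falls, but 5 falls with either filter choice and 2 rises when scaled to the same sum. Hoxa5, which overlaps Hoxa3 and Hoxa4, rose to 3.06, 1.60 and 0.949 FPKM (1.01, adjusted p 0.0209), a call lost without mESC replicate 2 (0.95, 0.0571) or NSC replicate 1 (0.73, 0.116). Hoxa7 fell (-1.80) and Hoxc9 was at 1.22 to 6.33 FPKM in mESCs and 0 in NSCs. Of 10 ventral genes 3 rose (Olig2, Nkx2-2 and Dbx2, which went from at most 0.557 to 4.13, 30.6 and 37.8 FPKM, 3.82 and 4.74 without NSC replicate 1), and of 11 dorsal genes 2 were tested and both rose, Pax3 from at most 0.848 to 4.15 to 7.54 FPKM (2.24) and Zic1 from at most 0.0651 to 2.21 to 3.74 FPKM (1.82). With either filter choice 2 dorsal genes fell; below the level tested, Olig3 averaged 1.92 FPKM in mESCs and 0 in NSCs, and Msx2 1.46 and 0.0323 FPKM. Nkx6-2, which overlaps Inpp5a, was not called (-0.72, adjusted p 0.263, but 0.0265 with only the 6 libraries fitted).

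Members of the same transcription factor family moved in opposite directions. In the Sox family 9 of 16 rose and 2 fell (median 3.38). The glial factor gene Sox9 rose from at most 0.0973 to 36.1, 57.7 and 50.2 FPKM (5.54), Sox8 from 0.531 to 0.961 to 113 to 139 FPKM (6.12), and Sox4 from 1.16 to 2.30 to 131, 257 and 182 FPKM (6.14). Sox11 rose as well (3.72). Sox15, a gene of pluripotent cells that overlaps Mpdu1, fell from 12.3 to 21.7 to at most 0.191 FPKM (-4.06), as did Sox13 (-2.02). The early neural gene Sox1 was at 0.400 to 0.443 FPKM in mESCs and 1.11 to 2.38 FPKM in NSCs (0.98), so it stayed low. In the POU family 4 of 11 rose and 2 fell, or 1 fell without mESC replicate 2 or NSC replicate 1 or when scaled to the same sum. Opposite to Pou5f1, the neural factor gene Pou3f3 went from 0.0741 to 0.268 to 47.8, 55.3 and 59.7 FPKM (5.54), Pou3f2 from at most 0.0675 to 7.73 to 8.68 FPKM (3.15) and Pou6f1 from 2.48 to 3.11 to 15.2 to 19.9 FPKM (2.31). The octamer factor gene Pou2f1 fell (-1.04).

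Adhesion genes split into 10 that rose and 9 that fell of 25. The epithelial cadherin gene Cdh1 was at 81.5, 73.1 and 69.5 FPKM in mESCs and 0, 0.0424 and 0 FPKM in NSCs (-6.22, SE 0.17), whereas the neural cadherin gene Cdh2 went from 7.69, 9.63 and 10.0 FPKM to 84.3, 54.6 and 59.6 FPKM (2.71, SE 0.13). Epcam, an epithelial adhesion gene, fell from 65.3 to 81.6 to at most 0.102 FPKM (-6.15), and the claudin genes Cldn6 (7.38 to 16.6 FPKM in mESCs) and Cldn4 (12.7 to 26.9 FPKM) were listed at 0 in NSCs. Further cadherin genes rose, Cdh13 from at most 0.0919 to 26.4, 50.0 and 59.9 FPKM (5.42), Cdh20 (3.82) and Cdh10 (3.79). In the extracellular matrix list 6 of 22 rose and 4 fell. The laminin gene Lama1 fell from 6.95 to 12.2 to 0.172 to 0.398 FPKM (-2.91) and the basement membrane gene Nid1 from 34.6 to 48.1 to 2.87 to 4.55 FPKM (-3.13). Fibronectin (Fn1) fell from 181, 152 and 123 FPKM to 11.4, 8.34 and 16.1 FPKM (-3.59). The neural proteoglycan gene Vcan rose from 3.43 to 3.79 to 31.7 to 58.0 FPKM (3.25), and Col9a3, which overlaps Tcfl5, rose too (3.47). Lama4 rose at a low level (1.05), and Lama5 fell (-0.89), a change of -0.46 with an adjusted p of 0.059 when scaled to the same sum.

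Among 13 DNA methylation genes 7 fell and 1 rose (median -1.61, and 3 rose when scaled to the same sum). The de novo methyltransferase gene Dnmt3b fell from 24.2, 48.4 and 32.7 FPKM to 2.17, 0.646 and 0.838 FPKM (-4.03, SE 0.24). Its cofactor gene Dnmt3l was at 45.7, 62.7 and 35.0 FPKM in mESCs and listed at 0 in NSCs, and Zfp57, which protects methylated imprints, fell from 151 to 239 to 7.98 to 11.3 FPKM (-4.26). Dnmt3a was level, at 16.4, 16.7 and 18.4 FPKM and 20.2, 15.6 and 18.0 FPKM (0.05, adjusted p 0.63, but 0.48 and 0.00149 when scaled to the same sum). The maintenance enzyme gene Dnmt1 overlapped, at 82.6 to 101 and 45.9 to 95 FPKM (-0.41, adjusted p 0.0192); its change was -0.33 with an adjusted p of 0.0881 without mESC replicate 2, -0.14 and 0.268 without NSC replicate 2, -0.65 without NSC replicate 1, and 0.04 when scaled to the same sum, and its adjusted p was 0.176 with only the 6 libraries fitted. The demethylase gene Tet3 rose from 2.04 to 2.44 to 14.1 to 16.2 FPKM (2.34), and Tdg (0.71) and Mbd3 (0.63, and 0.40 without mESC replicate 1) rose by less than 2-fold.

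Of 24 Polycomb and chromatin genes, 7 rose and 10 fell, and the core subunits of PRC2 did not move alike. Suz12 fell from 108, 110 and 105 FPKM to 29.8, 25.5 and 26.1 FPKM (-1.95, SE 0.12), Eed from 79.2 to 114 to 18.8 to 36.1 FPKM (-1.90) and the accessory subunit gene Mtf2 from 66.5 to 74.2 to 6.98 to 12.6 FPKM (-2.81). The catalytic subunit gene Ezh2 was at 70.6, 82.0 and 74.7 FPKM and 73.4, 61.0 and 59.6 FPKM (-0.23, adjusted p 0.0249); the change became 0.22 when scaled to the same sum, and the call was lost without mESC replicate 2 (-0.17, adjusted p 0.117), NSC replicate 2 (-0.19, 0.0884) or NSC replicate 3 (-0.17, 0.117) and with only the 6 libraries fitted (0.184). Ezh1 fell (-1.33). Within PRC1, the chromobox gene Cbx7 fell from 51.5 to 56.0 to 1.76 to 2.59 FPKM (-4.05) and Bmi1 rose from 3.62 to 6.26 to 29.9 to 36.5 FPKM (2.52). The SWI/SNF subunit genes Smarcc2 and Smarca2 were among the rises, Smarcc2 from 5.94 to 7.95 to 56.9 to 78.4 FPKM (3.07) and Smarca2 from 2.89 to 5.02 to 19.3 to 28.9 FPKM (2.41). The architectural gene Hmga1 fell from 807, 1260 and 1060 FPKM to 145, 98.8 and 127 FPKM (-3.06). Of 11 lamina genes 2 fell and 1 rose, and with the same-sum scaling 1 fell and 3 rose. Without mESC replicate 1 or with a pseudocount of 0.1 there were 2 rises, and without mESC replicate 3 none. The lamin B receptor gene Lbr fell from 85.8 to 102 to 13.3 to 30.3 FPKM (-2.17), Sun1 fell (-1.24) and Sun2 rose (1.05). Lmnb1 was at 149 to 263 and 131 to 200 FPKM and not called (-0.31, adjusted p 0.0618), but was called without mESC replicate 1 (-0.52, 0.00166) or NSC replicate 1 (-0.48, 0.00586). Lmna rose from 7.6 to 11.3 to 8.97 to 21.6 FPKM (0.63, adjusted p 0.00851). It lost the call under 2 alternatives, among them leaving out NSC replicate 1 (0.36, adjusted p 0.0911), and was 0.96 without NSC replicate 2. Lmnb2 (-0.84) and Syne2 (0.93) changed by less than 2-fold.

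Germline genes, which are held silent by promoter methylation in somatic cells, fell in 10 of 14 cases and rose in 1 (median -2.23). The RNA-binding protein gene Dazl fell from 56.7, 37.4 and 49.6 FPKM to 0, 0.0652 and 0 FPKM (-5.56). The helicase gene Ddx4 fell from 3.48 to 4.71 to 0.137 to 0.417 FPKM (-2.09) and the synaptonemal complex gene Sycp3, which overlaps Chpt1, from 1.61 to 3.34 to at most 0.384 FPKM (-1.55). The meiotic gene Hormad1 (17.3 to 22.2 FPKM in mESCs), the piRNA pathway gene Mael (5.03 to 5.57 FPKM) and the tubulin gene Tuba3a (13.2 to 20.6 FPKM) were listed at 0 in NSCs. Tdrkh, also of the piRNA pathway, went the other way, from 0.502 to 1.10 to 19.2 to 25.4 FPKM (3.72).

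Promoter stretches of Ddx4, Mael, Stk31 and Sycp3 are shown because an E-box, in capitals, recurs in this list. The E-box (CACGTG, its own reverse complement, 250 bases before the start) was found in 8 of 14 germline genes (57.1%) and in 6.86% of all genes. The stretches (RefSeq, GRCm38.p6) lie at chr13:112652311-112652366 (minus strand) for Ddx4, chr1:166238935-166238994 (minus) for Mael, chr6:49395457-49395516 (plus) for Stk31 and chr10:88459496-88459555 (plus) for Sycp3. The motifs shown in this and the earlier stretches were chosen after other motifs had been looked at.
Ddx4: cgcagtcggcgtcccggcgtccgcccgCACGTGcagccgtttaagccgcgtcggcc
Mael: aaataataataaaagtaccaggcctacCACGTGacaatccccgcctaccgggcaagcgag
Stk31: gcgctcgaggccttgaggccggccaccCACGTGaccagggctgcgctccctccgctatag
Sycp3: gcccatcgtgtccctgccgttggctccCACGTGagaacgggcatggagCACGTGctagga

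Of 29 imprinted genes, 6 rose and 11 fell. The noncoding RNAs of the Dlk1-Dio3 cluster fell, Meg3 from 72.3, 38.6 and 31.6 FPKM to 0.785, 0.761 and 0.421 FPKM (-4.79) and Rian from 53.9 to 87.5 to 0.423 to 0.732 FPKM (-5.35). The zinc finger gene Plagl1 fell from 40.3 to 44.7 to 0.349 to 1.61 FPKM (-4.48) and the noncoding H19 from 10.4, 17.6 and 4.48 FPKM to 0.805 to 1.11 FPKM (-2.41). Sgce rose from 1.92 to 7.97 to 60.3 to 67.4 FPKM (3.84), and Mest, which overlaps Copg2, from 21.2, 62.2 and 36.5 FPKM to 1630, 218 and 462 FPKM (3.87, with 3.09 without NSC replicate 1 and 4.54 without replicate 2). The values are not resolved by allele.

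Cell cycle genes of G1 changed in both directions, with 7 of 19 higher and 5 lower. The D-type cyclins drive G1 progression with CDK4 and CDK6. Ccnd2 rose from 0.517, 0.588 and 0.191 FPKM to 151, 87.2 and 148 FPKM (6.47, SE 0.21) and Ccnd1 from 16.2, 51.6 and 26.2 FPKM to 474, 67.1 and 188 FPKM (2.65, with 1.96 without NSC replicate 1 and 3.36 without replicate 2). Ccnd3, which overlaps Bysl, fell from 194, 325 and 300 FPKM to 32.0, 25.6 and 34.5 FPKM (-3.09). Cyclin E1 (Ccne1), which acts at entry into S phase, fell from 71.9 to 135 to 41.1, 7.02 and 14.4 FPKM (-2.57, and -3.21 without NSC replicate 1), and Cdk6 fell (-2.23). The CDK inhibitor gene Cdkn2c rose from 1.36 to 2.55 to 45.4 to 47.0 FPKM (3.95). Of 20 genes of S and G2/M, 10 fell and none rose (median -0.97); scaled to the same sum, 5 fell. The replication licensing genes Mcm2 (161 to 239 to 42.8 to 100 FPKM, -1.62), Mcm3 (-1.69) and Mcm6 (-1.72) and the mitotic cyclin genes Ccnb1 (-1.25) and Ccnb2 (-1.39) fell. The proliferation marker Mki67 was at 12, 40.7 and 35.0 FPKM in mESCs and 47.3, 49.3 and 26.6 FPKM in NSCs, which overlap, and was not called. Ccna2, which overlaps Exosc9, was at 110 to 121 and 76.4 to 124 FPKM (-0.28, adjusted p 0.0325). It lost the call without mESC replicate 2 (-0.25, 0.0893) or 3 (-0.27, 0.0722) and without NSC replicate 2 (-0.12, 0.311) or 3 (-0.25, 0.0857) and with only the 6 libraries fitted (0.216), was -0.46 without NSC replicate 1, and became 0.17 when scaled to the same sum.

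In the glycolysis list 12 of 21 genes fell and 2 rose (median -1.20), and 6 fell with the same-sum scaling; 1 rose without mESC replicate 3 or NSC replicate 3. The glucose transporter genes Slc2a3, from 521, 340 and 445 FPKM to 1.11, 1.57 and 5.50 FPKM (-7.03, SE 0.29), and Slc2a1, from 163 to 225 to 16.0 to 34.1 FPKM (-2.97), fell, as did the hexokinase gene Hk2 (52.3 to 67.7 to 7.40 to 16.9 FPKM, -2.24). The phosphofructokinase genes diverged: Pfkp, which overlaps Pitrm1, fell from 96.6 to 149 to 2.03 to 5.93 FPKM (-4.90), Pfkl fell (-1.06), and Pfkm, which overlaps Senp1, rose from 19.3 to 31.9 to 41.3 to 61.3 FPKM (1.10). Hk1, which overlaps 2210417K05Rik, was not called (0.21, adjusted p 0.375), but was called higher without mESC replicate 1 (0.49, 0.0314) and when scaled to the same sum (0.64, 0.0164). Gpi1 fell by less than 2-fold (-0.43, with an adjusted p of 0.0626 with only the 6 libraries fitted, and 0.02 when scaled to the same sum), and the enolase gene Eno2 was not called (0.82, adjusted p 0.141, with 1.32 and 0.0259 without mESC replicate 1 and 1.59 and 0.00141 without NSC replicate 1). In contrast, none of 19 cholesterol synthesis genes changed 2-fold (4 called higher, 4 lower, 22.2% of those tested each, against 37.8% and 39.6% of all genes; median -0.09), whereas 8 were called higher and none lower when scaled to the same sum (median 0.34). At 2-fold, 2 rose on that scale, 3 fell without NSC replicate 1 and 1 fell without mESC replicate 1. The fatty acid binding genes Fabp7 and Fabp5 (125 to 186 to 281 to 578 FPKM, 1.44) rose, whereas Fabp3 fell from 894, 332 and 536 FPKM to 3.91, 1.63 and 6.45 FPKM (-6.89).

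Of 16 genes of the integrated stress response, 4 rose and 1 fell, and 7 rose under the same-sum scaling. The number of rises depended on single libraries, with 9 without NSC replicate 1, 2 without NSC replicate 2 and 6 without mESC replicate 1. Falls numbered 2 without mESC replicate 3, NSC replicate 2 or NSC replicate 3. The asparagine synthetase gene Asns fell from 912, 505 and 675 FPKM to 48.5, 274 and 288 FPKM (-2.1, and -1.27 without NSC replicate 1), and Aldh1l2 rose from 0.597 to 1.55 to 1.99, 30.4 and 23.9 FPKM (2.77, with 3.85 without NSC replicate 1 and 2.15 without replicate 2). The cystine transporter gene Slc7a11 rose from at most 0.149 to 1.18, 6.73 and 7.92 FPKM (2.32, and 2.97 without NSC replicate 1). The central factor gene Atf4 was at 333, 209 and 172 FPKM in mESCs and 179, 256 and 295 FPKM in NSCs and was not called (0.06, adjusted p 0.794, but 0.51 and 0.0362 when scaled to the same sum). Trib3 was at 1.85, 18.8 and 38.8 FPKM in NSCs and not called. NSC replicate 1 was the lowest NSC library for all these genes.

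Genes of cytosolic ribosomal proteins, picked by a pattern in their symbols, were added after the data were seen, since they take a large part of all FPKM. The pattern took in the paralogs Rpl7l1, Rpl22l1 and Rps27l. It left out entries of several symbols, such as that of Rpl13a, so the set is not the whole family. All 72 were called lower in NSCs, against 39.6% of all tested genes, with a median of -0.79. By 2-fold, 12 were lower (16.7%), below the 20.2% of all tested genes. Their share of the summed FPKM of tested genes was 27.6% in mESCs and 21.6% in NSCs, and they made up 43.9% of the difference in that sum between the states. Scaled to the same sum, 58 were called lower, none by 2-fold and none higher, with a median of -0.34.

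WT day 7 and day 9 neurectoderm cells, made by the separate protocol, give further levels of the same genes. Comparisons with them share the WT mESC libraries, so the values are only set side by side. Pou5f1 was at 1360 ± 109 FPKM (mean ± SD, n = 3 libraries here and below) in mESCs. It was 211 ± 45.8 at day 7, then 38.6 ± 8.41 on day 9, and 0.385 ± 0.486 in NSCs. Fabp7 was at 0.248 ± 0.215, 97.7 ± 6.62, 363 ± 40.2 and 3860 ± 984 FPKM in the same order. Olig2 was at 3.37 ± 1.17, 3.87 ± 2.46 and 6.04 ± 2.68 FPKM in mESCs and day 7 and day 9 cells and at 338 ± 31.4 FPKM in NSCs. Bcan was likewise at 0.403 ± 0.202, 0.257 ± 0.111 and 0.249 ± 0.158 FPKM, against 309 ± 74.9 FPKM in NSCs, and Egfr at 0.686 ± 0.687, 1.10 ± 0.357 and 1.36 ± 0.240, against 70.5 ± 28.5 FPKM. Sox2 had lower means in the other 3 groups than in mESCs, at 315 ± 3.90, 138 ± 9.12, 148 ± 15.3 and 185 ± 39.8 FPKM. The cadherin gene Cdh2 was as high in day 7 and day 9 cells as in NSCs, at 9.12 ± 1.25, 81.2 ± 6.30, 79.7 ± 2.95 and 66.2 ± 15.9 FPKM, while Cdh1 was at 74.7 ± 6.16, 39.8 ± 1.61, 14.9 ± 4.01 and 0.0141 ± 0.0245 FPKM. Dusp6 was at 3.19 ± 2.98, 41.6 ± 4.27, 25.1 ± 8.28 and 47.6 ± 21.4 FPKM, and Spry4 at 0.528 ± 0.755, 2.77 ± 1.13, 0.893 ± 0.524 and 18.8 ± 11.5 FPKM.

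**Figure D4:**
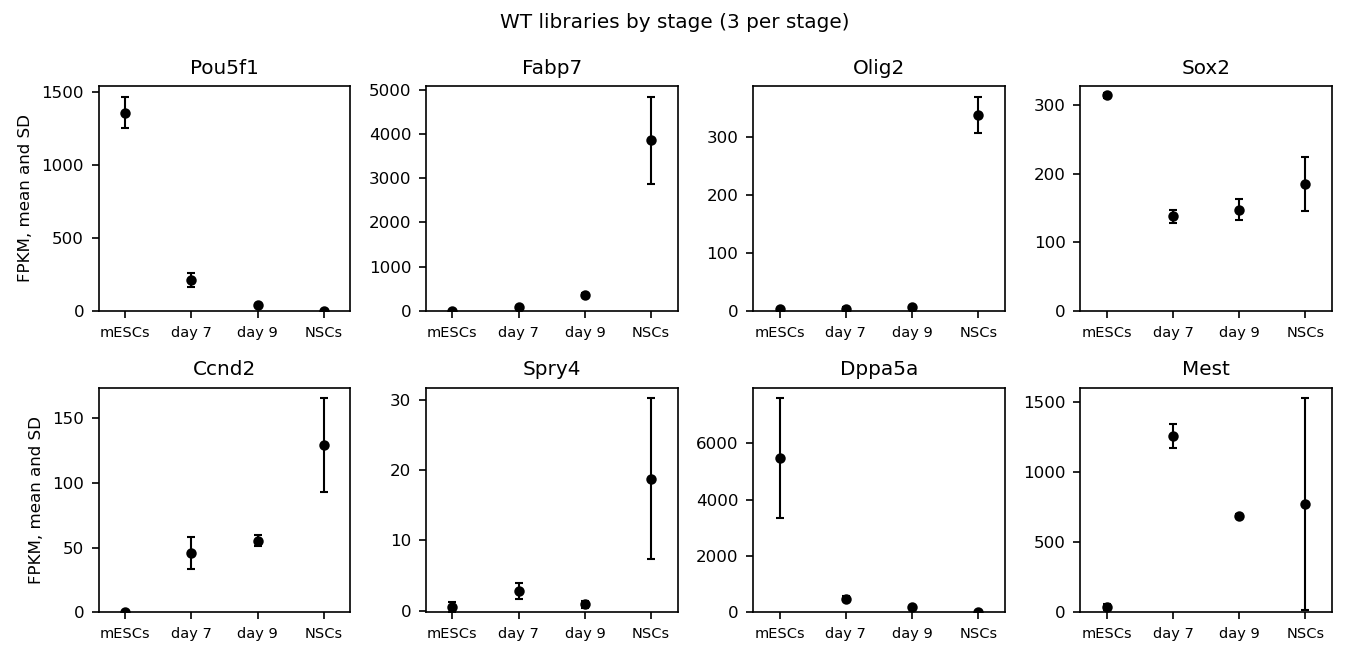
Mean FPKM (linear y axis, separate scale per gene) with SD over 3 libraries for 8 genes in WT mESCs, day 7 cells, day 9 cells and NSCs. Pou5f1 and Dppa5a have the highest mean in mESCs and the lowest in NSCs, Fabp7 and Ccnd2 lie above the mESC level in day 7 cells, and Olig2 is high in NSCs alone among these groups; Mest in NSCs has an SD (757 FPKM) close to its mean (771 FPKM).

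The same comparison in SmcHD1-mutant cells shares no library with the WT one, but both come from the same fit and share its estimate of spread. Among WT libraries Smchd1 was at 13 to 13.9 FPKM in mESCs and at 16.1 to 21.4 in NSCs. Among KO libraries it was at 1.82 to 2.97 FPKM in mESCs and 3.43 to 4.37 FPKM in NSCs, lower in every KO library than in any WT library. Of the 4904 genes changed 2-fold in WT cells, 4886 (99.6%) differed in the same direction between KO NSCs and KO mESCs. Of the other 18 genes, 3 were listed at 0 in all KO libraries and 15 had the opposite sign in KO cells, none of them called there (smallest adjusted p 0.0503). In all, 4389 (89.5%) of the 4904 were also called with a 2-fold change in KO cells. Fabp7 reached 3090, 3020 and 2290 FPKM in KO NSCs from at most 0.842 FPKM in KO mESCs, and Pou5f1 fell from 1320 to 1530 to at most 0.156 FPKM.

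A difference between genotypes in the NSC to mESC change was called for 284 genes (2.41%), 132 with a higher and 152 with a lower change in KO cells. WT and KO libraries with the same replicate number varied together within each stage, and a fit that blocked on this number within each stage called 79 genes, 71 of them among the 284. With only the 12 libraries compared in the fit, 26 genes were called. Single libraries moved the 284, to 617 without WT NSC replicate 1, 149 without WT mESC replicate 3, 148 or 141 without KO mESC replicate 2 or 3, and 174 or 138 without KO NSC replicate 2 or 3. Nnat was at 800, 1100 and 636 FPKM in WT NSCs and 231, 130 and 115 FPKM in KO NSCs, with 3.51 to 5.49 FPKM in all mESC libraries (difference of the log2 changes -2.22, adjusted p 0.002; 0.0253 with the block). The hindbrain genes Hoxa2, at 19.7 to 24.5 FPKM in WT and 2.54 to 5.70 FPKM in KO NSCs (-2.09, 0.00203; 0.035 with the block), and Hoxb2, at 8.89 to 12.7 and 1.13 to 3.80 FPKM (-2.21, 0.00239; 0.0543 with the block), rose less in KO cells, and the dorsal gene Zic1, at 2.21 to 3.74 and 15.9 to 16.5 FPKM, rose more (2.2, 0.00203; 0.0118 with the block). Vim was at 116 to 145 FPKM in KO mESCs and 901 to 1000 FPKM in KO NSCs (-0.93, 0.0305; 0.0134 with the block) and Tnc at 72.0 to 118 FPKM (-1.15, 0.0369; 0.0778 with the block). Kit differed in both states, at 31 to 38.7 FPKM in KO and 21.7 to 29.2 FPKM in WT mESCs and at 4.56 to 6.96 FPKM in KO and 10.0 to 10.7 FPKM in WT NSCs (-1.29, 0.000899; 0.0322 with the block). In each of these 7 genes the KO and WT NSC libraries did not overlap.

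**Figure D5:**
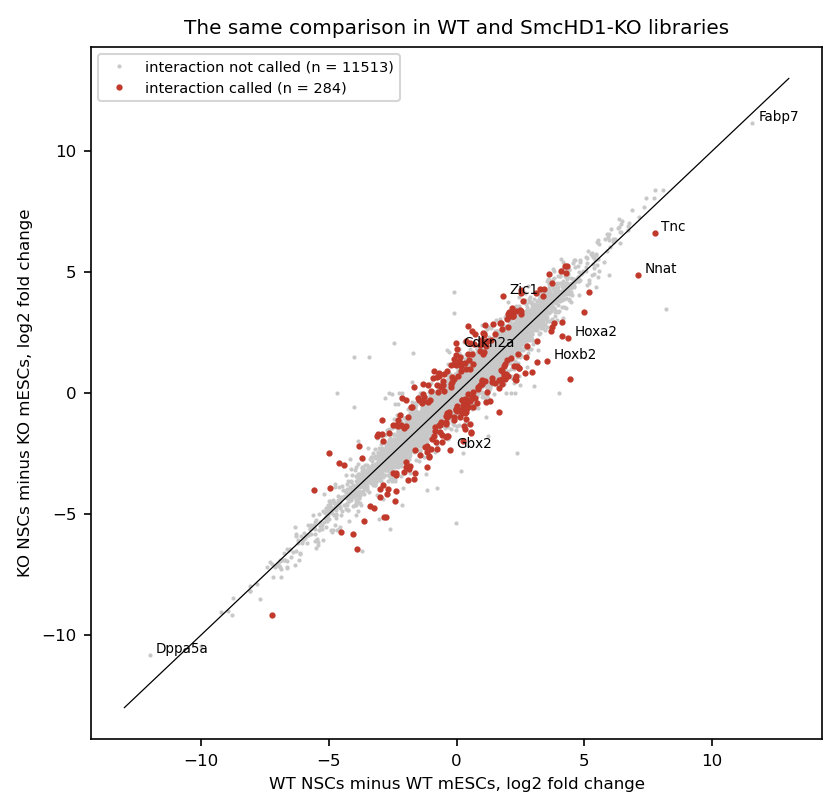
Log2 fold change of each tested gene from mESCs to NSCs in WT (x axis) and SmcHD1-mutant (y axis) libraries, on log2(FPKM + 1), with the line of equal change; the 284 genes whose change differs between genotypes are red. Most genes lie near the line, with Nnat, Hoxa2 and Hoxb2 below it and Zic1 and Cdkn2a above it.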

How the data were processed

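Poly(A) RNA-seq libraries (stranded kit) of 24 samples were processed by the authors: per the labels, reads were trimmed (Trim Galore 0.6.6) and aligned to mm9 (TopHat2 2.1.1), chrX was left out, and Cufflinks and Cuffdiff gave the deposited FPKM per library. Whether counting used strand is not given in the sources used here. Of 36 FPKM columns, 12 belong to no sample here and were not used. Read totals were not used here, so the depth behind each value is known only as relative read numbers.

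All 8 groups were fitted together with limma 3.58.1 (R 4.3.3, trend and robust settings, two-sided) on log2(FPKM + 1), so fold changes of low genes are understated; genes needed a mean of at least 1 FPKM, and calls an adjusted p under 0.05 over all tested genes. The fit was tested on simulated data. Levels at exactly 0 in a whole group were given without a fold change. Differences between genotypes were still given for Hoxb2, Dnmt3l, Cdx2 and Gsc, which have such a group, and their size depends on the 1 added to FPKM.

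Genes named in the text were, first, the 10 that rose and the 10 that fell most among those averaging 5 FPKM or more in whichever state was higher and with separated groups. From every list came the first 4 genes, the 3 largest rises and falls, and up to 3 members differing between genotypes. Gbx2, Jam2, Emx2, Rbfox3, Sox17, Foxa2, Gata6, Tfap2b, Col3a1, Cdh5, Ptprc, Gli1, Fgf8, Fgfr4, Olig3, Msx2, Hey2, Stk31 and Cdkn2a, and the genes shown at days 7 and 9, were chosen after their values were seen. The members and lists were chosen with earlier results of these data known. Among tested entries, 130 hold several symbols. WT mESC and NSC libraries with the same number did not vary together (correlations of deviations -0.22, -0.14 and -0.14), while WT and KO libraries did within mESCs (0.30, 0.47 and 0.15) and NSCs (0.35, 0.19 and 0.26), from replicate numbers in the sample titles. Alternatives covered the pseudocount, filters, scaling, the libraries fitted, the variance settings, the replicate block and leaving out each library.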

Additional observations from a re-analysis of the deposited data

Results flagged for a closer look

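The change from mESCs to NSCs differed between KO and WT cells, by the interaction term of the limma fit, in 284 genes. The listed genes with such a difference that the text names are given here as KO change minus WT change on the log2 scale. It was positive for Cdkn2a (1.81), Dusp5 (1.69), Dnmt3l (1.57), Col4a2 (1.53), Col4a1 (1.43), Cebpb (1.43), Gsc (1.18) and Zic1 (2.2). It was negative for Hoxb2 (-2.21), Nnat (-2.22), Hoxa2 (-2.09), Gbx2 (-2.07), Fbln2 (-1.84), Slc7a11 (-1.79), Cdx2 (-1.30), Kit (-1.29), Lef1 (-1.28), Prom1 (-1.28), Bmpr1b (-1.16), Tnc (-1.15) and Vim (-0.93). A positive difference need not be a rise, since Dnmt3l and Gsc fell in both genotypes and fell less in KO cells on this scale. With the replicate block within each stage, 79 genes were called, and 26 with only the 12 libraries compared. The block lost the calls of Slc7a11 (adjusted p 0.163), Lef1 (0.128), Fbln2 (0.108), Dusp5 (0.102), Gsc (0.0834), Tnc (0.0778), Cdx2 (0.0749), Prom1 (0.0609), Hoxb2 (0.0543) and Bmpr1b (0.0535). Cdkn2a, which encodes the p16 and p19ARF inhibitors of proliferation, was at 54.8, 44.7 and 47.4 FPKM in WT NSCs and 248, 152 and 184 FPKM in KO NSCs, with 36.6 to 66.2 FPKM in mESCs of either genotype. For Dnmt3l, listed at 0 in all NSC libraries, the difference is in mESCs, at 35.0 to 62.7 FPKM in WT and 9.48 to 19.5 FPKM in KO cells; for Cdx2, also at 0 in NSCs, mESC levels were 5.46 to 8.75 and 14.9 to 26.9 FPKM. Gsc was listed at 0 in WT NSCs and was at 1.08 to 2.12 FPKM in KO NSCs.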

How the results depend on the processing

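Counts of genes called ran from 7798 (only the 6 libraries compared) to 10968 (no filter on low values) over the settings other than leaving out a library, and those with a 2-fold change from 3416 (tested against 2-fold itself) to 5419 (pseudocount 0.1); leaving out 1 library gave 8707 to 9206 and 4797 to 5197. The share of genes with the same direction in KO cells stayed at 99.4 to 99.7%. The number of genes whose change differed between genotypes was 26 with only the libraries compared, 79 with the replicate block within each stage (an alternative chosen after seeing the data) and 138 to 617 when a library was left out. It was 617 without WT NSC replicate 1, 149 without WT mESC replicate 3, 148 and 141 without KO mESC replicates 2 and 3, and 174 and 138 without KO NSC replicates 2 and 3; the cause was not tested. With the replicate block over all stages, 9120 genes were called, 4904 by 2-fold, 268 differed between genotypes and the KO share was 99.7%; the mESC and NSC libraries share only a number. Scaled to the same sum, the change of Ccna2 (0.17), Dnmt1 (0.04), Ezh2 (0.22), Gpi1 (0.02) and Pmvk (0.28) turned positive. Of 235 named genes, 201 stayed on the same side of the threshold under every alternative checked for single genes. No called change among these switched direction, but genes not called could change sign, as Apoe did (-1.39 to 0.4). The test against 2-fold, the block within each stage and leaving out KO libraries were not checked for single genes.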
